A study of Mus musculus with 6 samples.

Results

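The genes of the cytosolic ribosome were followed in crypts of mouse ileum, in wild-type mice and in mice that carry a Tl1a transgene. A gene was included when its name begins with Rpl or Rps followed by a digit, or is Rplp0, Rplp1, Rplp2 or Rpsa, leaving out the Rps6k kinases. This gave 82 of the 7120 genes in the deposited table, of which 47 belong to the large and 35 to the small subunit. By name, 74 are conventional genes, 4 are paralogues (Rpl22l1, Rpl36al, Rps27l and Rps27rt) and 4 are pseudogenes (Rpl14-ps1, Rpl34-ps1, Rps15a-ps4 and Rps15a-ps6). The pseudogene names were kept, since reads of a parent gene can be assigned to them.

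The 6 libraries came from C57BL/6 mice aged 3 months, 3 from WT and 3 from Tl1a-tg. In every library the RNA was that of crypts captured by laser from paraffin sections after Methacarn fixation, and it was sequenced with a stranded mRNA kit. TL1A belongs to the tumour necrosis factor group of cytokines. The labels name neither the promoter of the transgene nor the cells that express it. Whether each library is a separate mouse is not stated either, so the errors below may be technical.

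Each ribosomal protein occupies a fixed place in the large or the small subunit, usually as a single copy, and cells need the proteins of a subunit in matched amounts. The small subunit reads the messenger RNA, and the large subunit joins amino acids and holds the tunnel through which the new chain leaves. Ribosomal protein messages begin with a tract of pyrimidines through which mTORC1, a kinase complex that senses nutrients, controls their translation. In crypts, dividing progenitors and secretory Paneth cells both depend on high ribosome output.

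The deposited expression values turned out to be, for each gene, 1 fitted mean in WT and 1 in Tl1a-tg, scaled by 1 factor per library. No library therefore has a value of its own, the fitted means below carry no SD, and they are given as reads per library at a common depth. The sums of the deposited values, which are not read depths, ran from 314186 to 774249 per library, and the depth is unknown. The standard errors and p-values are those of the authors' DESeq2 fit. All 5 Paneth markers were well measured, with 5207 for Lyz1 in Tl1a-tg and 5829 in WT. Of 4 stem cell markers 3 were listed: Olfm4 stood at 677 and 679, Smoc2 at 116 and 87.2, and Lgr5 at 131 and 0.34. Several markers of other cells differed by more. The 3 tuft cell markers summed to 19.6 in Tl1a-tg and 247 in WT. The 3 of 6 leukocyte markers listed summed to 0.81 and 205, and the 4 of 5 fibroblast markers listed to 200.05 and 54.6. The 2 of 5 enterocyte markers listed summed to 138 and 12.6, nearly all of it Vil1. Of 5 goblet markers 3 were listed. Muc2 stood at 12552 in Tl1a-tg and 13390 in WT, Agr2 at 186 and without reads, and Fcgbp near 0 and at 1.08. Of 4 plasma cell markers only Sdc1 was listed, at 75.2 in Tl1a-tg and without reads in WT. The smooth muscle marker Acta2 and the fibroblast marker Dcn had no reads in either genotype. The part of these cells in the results below was not tested, and in bulk tissue fewer cells of a type and less RNA per cell cannot be told apart.

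As a family, ribosomal protein genes took nearly the same share of the fitted total in each genotype. The share was 1.04% in Tl1a-tg and 1.002% in WT. The precursor of ribosomal RNA, Rn45s, took 26.5% and 28.9%. Without it the family's share was 1.41% in both. A genotype was taken to be without reads where its fitted mean lay at the lowest common value or near 0. By that reading, 60 of the 82 members had reads in both genotypes (73.2%), against 34.4% of all genes. Another 14 had reads in Tl1a-tg alone (17.1%, against 31.4% of all genes) and 4 in WT alone (4.88%, against 16.3%). The remaining 4, Rpl31, Rps24, Rps15a-ps4 and Rps15a-ps6, had reads in neither (4.88%, against 17.9%). A second low value recurred, 0.34 in WT (as for Rpl5, Rpl13 and Rpl29) and 0.38 in Tl1a-tg (as for Rpl9 and Rps20). It was counted as reads, which was not tested, so these counts depend on that choice. The members with reads in WT alone were Rpl36al, Rpl34-ps1, Rps27 and Rps27l, so Rps27 was the only conventional gene among them. Those with reads in Tl1a-tg alone were 5 of the large subunit (Rpl22l1, Rpl32, Rpl35a, Rpl37 and Rpl38) and 9 of the small subunit (Rps6, Rps7, Rps9, Rps10, Rps15a, Rps16, Rps19, Rps21 and Rps23). Their Tl1a-tg values ran from 0.38 for Rpl35a to 125.7 for Rps16, and most were modest, such as 32.4 for Rps7 and 61.4 for Rpl38. None of these 5 large subunit genes has a p in the authors' deposited table, nor do Rps7, Rps9, Rps19 and Rps21. A p is missing for 26 of the 82 members, and 2580 of the 7120 genes have one. Since no library has a value of its own, how many libraries of a genotype hold a gene's reads is unknown. These members were listed after their values were seen.

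A stricter limit showed how unevenly the family was read. At a fitted mean of at least 10, 35 members were measured in both genotypes (42.7%, against 19.4% of all genes) and 28 in Tl1a-tg alone (34.1%, against 32.9%). In WT alone there were 11 (13.4%, against 17.1%), and 8 reached the limit in neither (9.76%, against 30.7%). A larger part of the members than of all genes was therefore measured in both genotypes, while the share reaching the limit in Tl1a-tg alone was close to that of all genes. The subunits differed in these counts. Of the large subunit genes, 25 reached 10 in both genotypes, 14 in Tl1a-tg alone, 6 in WT alone and 2 in neither. Of the small subunit genes, 10 reached it in both, 14 in Tl1a-tg alone, 5 in WT alone and 6 in neither. With 1 fitted value per gene and genotype, the difference between subunits was not tested.

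**Figure D1:**
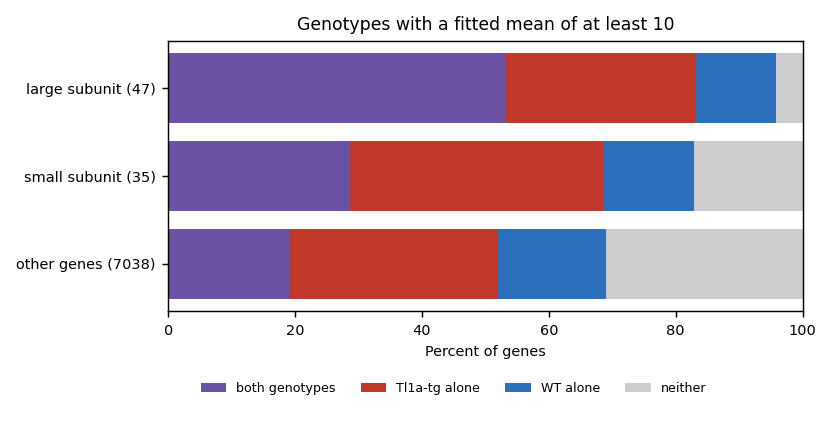
Percent of genes (horizontal axis) with a fitted mean of at least 10 in both genotypes, in 1 alone or in neither, for 47 large subunit genes, 35 small subunit genes and the 7038 other genes. The part measured in both genotypes is 53.2% for the large subunit, 28.6% for the small subunit and 19.1% for the other genes.

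The subunits also differed in the direction of their summed levels. Large subunit genes took 0.644% of the total in Tl1a-tg and 0.730% in WT. Small subunit genes took 0.394% and 0.273%. The ratio of the small to the large subunit sum was 0.612 in Tl1a-tg and 0.373 in WT. Much of the large subunit difference lay in Rplp0: without it the large subunit share was 0.607% and 0.591%, and the ratio of small to large was 0.6499 and 0.461. Without Rplp0 and Rps2, each the gene with the highest fitted mean of its subunit, the ratio was 0.603 and 0.356. No error can be given for these sums.

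**Figure D2:**
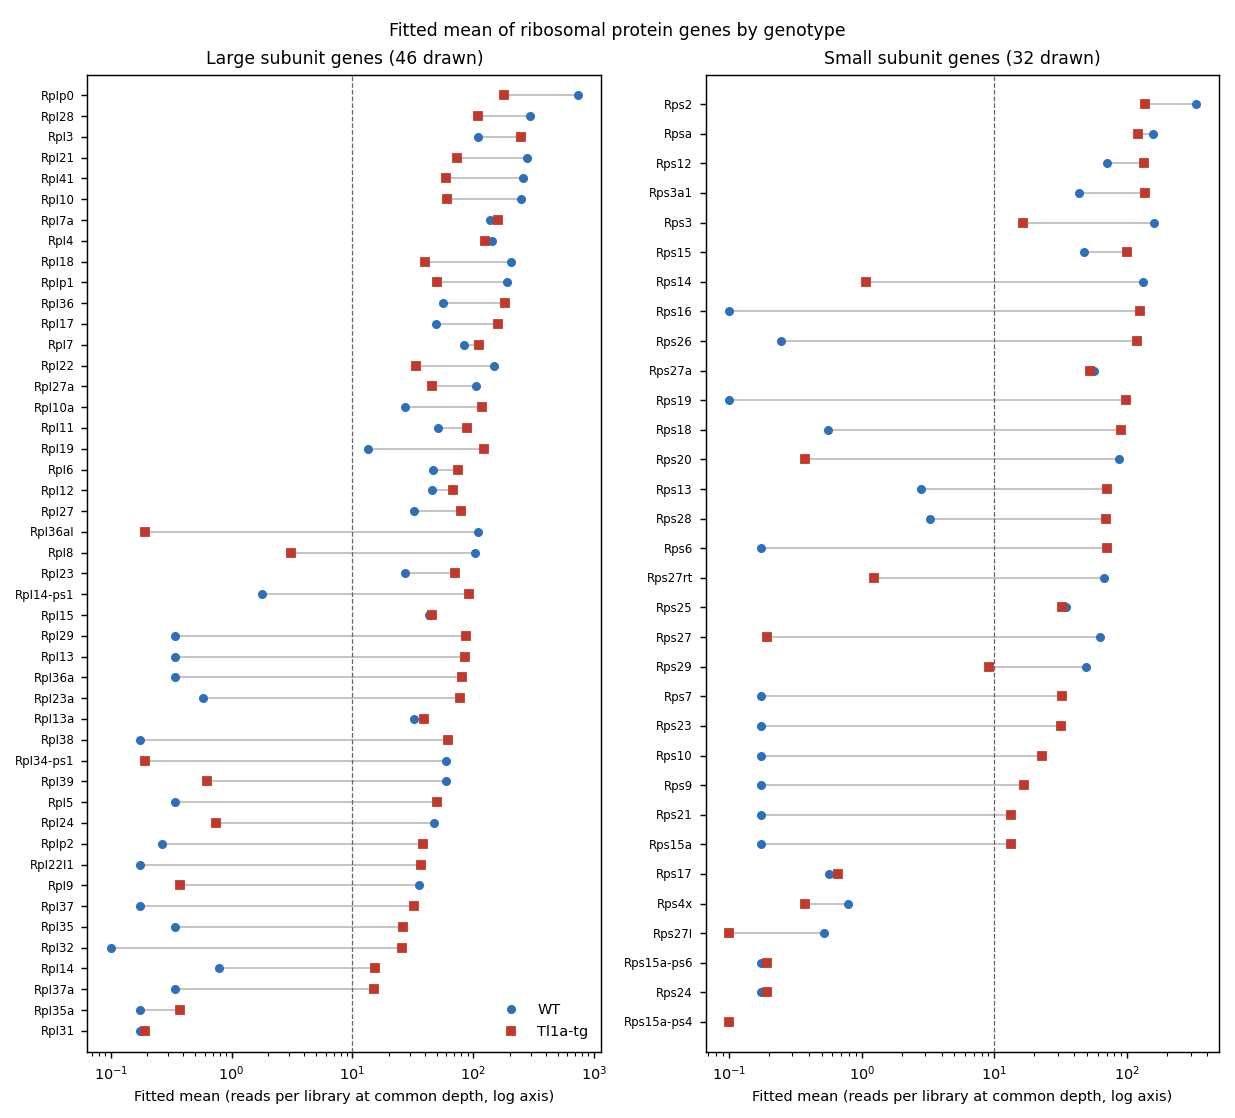
Fitted mean in reads per library at a common depth (horizontal log axis) of 78 of the 82 genes, with squares for Tl1a-tg and circles for WT, sorted by the mean of both. Values below 0.1 are drawn at 0.1, and the dashed line marks 10. Long grey lines, such as that of Rps16 from 125.7 in Tl1a-tg to near 0 in WT, are genes read in 1 genotype with few or no reads in the other.

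The large subunit carries the stalk, a lateral arm on which the elongation factors act, made of Rplp0 with pairs of Rplp1 and Rplp2. Rplp0, the base of that stalk, stood at 180.2 in Tl1a-tg and 736 in WT. Rplp1 stood at 50.4 and 191, whereas Rplp2 had the opposite order, 38.4 and 0.27. The stalk genes thus did not share a direction. For Rplp0 the authors' deposited table gives -2.03 as the log2 fold change with 2.11 as its standard error and an unadjusted p of 0.336, and its 95% interval runs from -6.16 to 2.1. This was the smallest standard error of any member, and even so the interval takes in changes of either sign.

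The other large subunit genes with high fitted means were split as well. Rpl3, which reaches toward the centre where peptide bonds are formed, stood at 251 in Tl1a-tg and 109 in WT. Rpl7a stood at 159 and 137, and Rpl4, which lines the exit tunnel, at 125 and 144. These last were nearly level between genotypes. WT was higher for Rpl28 (109.6 and 296), for Rpl21 (73.7 and 282) and for Rpl10 (60.5 and 248). Rpl10 joins the subunit at a late step of its assembly. Rpl41, the shortest ribosomal protein, stood at 59.7 in Tl1a-tg and 258 in WT. Per kilobase of coding length Rpl41 reached 433 in Tl1a-tg and 1872 in WT, and Rpl28, Rplp0 and Rpl21 reached 719, 774 and 587 in WT. In Tl1a-tg the level per kilobase of Rpl36 was above all of these, at 579, against 180.0 in WT. The order of the genes by level per length therefore differed between the genotypes.

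Among the small subunit genes, Rps2, which lies where messenger RNA enters the ribosome, stood at 137 in Tl1a-tg and 330.1 in WT. Rpsa, also known as a laminin receptor, stood at 119.9 and 156. Tl1a-tg was higher for Rps12 (134 and 70.6) and for Rps3a1 (135 and 43.3). Rps3, which also lies at the messenger RNA entry and has a role in DNA repair, stood at 16.4 and 159. The small subunit genes thus did not share a direction either. For Rps3 the authors' deposited table gives -3.27 as the log2 fold change with 2.76 as its standard error and an unadjusted p of 0.235, the smallest p of any member measured in both genotypes.

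Among the 78 members with reads in either genotype, 48 had the higher fitted mean in Tl1a-tg (61.5%, against 58.3% of all genes with reads) and 30 in WT (38.5%, against 41.7%). These shares were close to those of all genes. The 35 members whose fitted means reached 10 in WT and in Tl1a-tg were split nearly evenly, a count that leaves out genes read in 1 genotype. The authors' deposited table gives 18 positive and 17 negative log2 fold changes, with a median of 0.08. The 1379 genes of the whole table that met the same limit had a median of -0.38, with 512 positive and 867 negative. Relative to that shift, the members' median was 0.46. For the large subunit the median was 0.21 over 25 genes, 14 of them positive, and for the small subunit -0.10 over 10 genes, 4 of them positive. Set against the shift of all genes, these were 0.59 and 0.27, so the sign of the small subunit median depends on the centring. The ratio of fitted means was within 2-fold for 13 of the 35 and beyond 4-fold for 10. Nearly level were Rpl15, at 45.5 in Tl1a-tg and 43.0 in WT, and Rps25, at 32.4 and 34.6. Rpl17 stood at 162 and 49.5 and Rpl10a at 119 and 27.2, while Rpl18 stood at 39.6 and 205. The extremes were Rpl19, 9.19-fold higher in Tl1a-tg, and Rps3, 9.67-fold higher in WT. In the authors' deposited table the 95% interval of every one of the 35 includes 0. The narrowest reaches 4.13 to each side on the log2 scale, a factor of 17.6, so a smaller difference between the genotypes was not detectable for these genes.

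**Figure D3:**
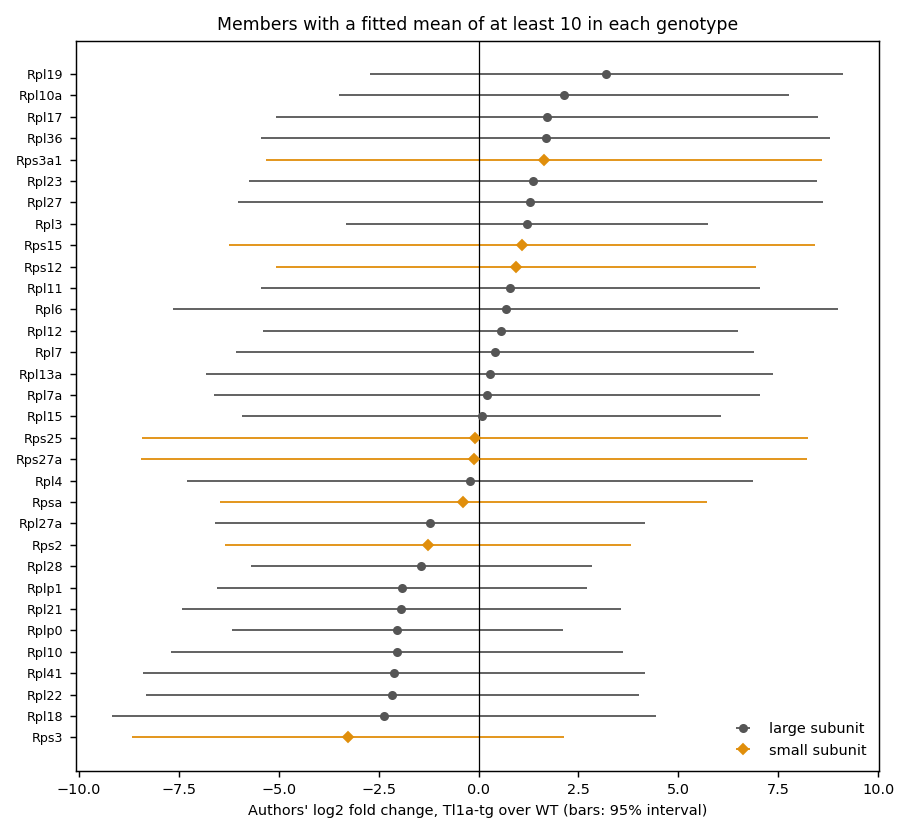
Authors' log2 fold change, Tl1a-tg against WT (horizontal axis), for 32 of the 35 members that reached a fitted mean of 10 in both, with bars for the 95% interval. Points run from -3.27 for Rps3 to 3.2 for Rpl19, and every bar crosses 0.

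The standard errors of the authors' deposited table were solved for the dispersion, the spread between libraries beyond counting error. It lay at a ceiling of 13 for 28 of the 82 members (34.1%) and for 76.4% of all genes. At the ceiling a standard error does not estimate a measured spread. In the large subunit 21.3% of the genes were at the ceiling and in the small subunit 51.4%. The part at the ceiling fell with level, and at similar levels it was smaller for members than for other genes. Where fitted means averaged 10 to 50 over the genotypes, it was 43.8% of 32 members and 82.4% of 3023 other genes. From 50 to 100 it was 22.7% of 22 and 55.8% of 958, and from 100 to 500 none of 15 and 16.4% of 440.

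Only Rps16 passed the authors' test. Rps16 protein is a small subunit protein whose tail, in bacteria and yeast, touches the transfer RNA at the decoding site. Its fitted mean was 125.7 in Tl1a-tg and near 0 in WT. The authors' deposited table gives 21.77 as the log2 fold change with 3.35 as its standard error, a DESeq2 adjusted p of 1.42e-07 and a shrunken log2 fold change of 0.32. The fold change rests on a WT value near 0, depends on the fitting and is no bound. With near-0 values raised to the lowest common value, the log2 fold change was 9.48, the unadjusted p 0.00469 and the adjusted p 0.355, and no gene of the table passed. Of the 53 members with an adjusted p in the authors' deposited table, 1 was called (1.89%), higher in Tl1a-tg, against 3.67% of the 1662 genes that have one. Of these genes, 2.47% were called higher and 1.2% lower.

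The promoter of Rps16 and, for comparison, that of Rplp0 are shown because these are the called member and the member with the highest fitted mean. They are taken from RefSeq on build GRCm38.p6, from 250 bases before to 50 after the gene's start. Capitals mark letters that were searched for, described further below.
Rps16, chr7:28350439-28350738, plus strand: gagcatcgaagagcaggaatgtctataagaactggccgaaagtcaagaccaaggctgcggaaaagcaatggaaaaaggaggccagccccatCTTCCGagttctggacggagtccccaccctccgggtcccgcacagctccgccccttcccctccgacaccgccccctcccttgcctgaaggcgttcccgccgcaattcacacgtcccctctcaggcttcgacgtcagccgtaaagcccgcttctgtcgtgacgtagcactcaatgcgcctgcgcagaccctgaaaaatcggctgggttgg
Rplp0, chr5:115559217-115559516, plus strand: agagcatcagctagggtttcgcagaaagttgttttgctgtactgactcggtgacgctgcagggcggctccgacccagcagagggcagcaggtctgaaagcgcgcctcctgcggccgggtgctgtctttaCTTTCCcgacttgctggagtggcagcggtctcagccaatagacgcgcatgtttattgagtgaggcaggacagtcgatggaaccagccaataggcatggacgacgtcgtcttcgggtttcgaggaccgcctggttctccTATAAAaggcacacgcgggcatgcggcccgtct

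Below that threshold, the smallest p-values belonged to genes read well in 1 genotype with few or no reads in the other. Of the 56 members with a p in the authors' deposited table, 9 had an unadjusted p below 0.05 with a higher value in Tl1a-tg (16.1%), against 10.7% of the 2580 genes with a p. In the lower direction it was 1 (1.79%), against 3.91%. The 9 include Rps16, the called member. Rpl29 stood at 87.9 in Tl1a-tg and 0.34 in WT. For Rpl29 the authors' deposited table gives an unadjusted p of 0.0044 and a DESeq2 adjusted p of 0.11. Rpl23a, which receives the signal recognition particle at the tunnel exit, stood at 77.8 and 0.58. Rps6, the substrate of S6 kinase, stood at 70.8 in Tl1a-tg and was without reads in WT. Rpl13 stood at 85.6 and 0.34. These members have in common a fitted mean above 70 in Tl1a-tg and at most a few reads in WT.

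The remaining members of that group were alike. Rpl5, which with Rpl11 restrains the p53 inhibitor Mdm2, stood at 50.6 in Tl1a-tg and 0.34 in WT, while Rpl11 stood at 88.4 and 50.8. Rpl36a stood at 81.1 and 0.34. Rps26 and Rps18, both of the small subunit, stood at 119 and 0.25 and at 90.3 and 0.56. In the authors' deposited table the adjusted p of Rpl23a, Rps6, Rpl13, Rpl5, Rpl36a, Rps26 and Rps18 is 0.23. The members lower in Tl1a-tg with the smallest p were Rpl36al, Rpl9, Rps20, Rpl24 and Rps3. Rpl36al was without reads in Tl1a-tg and stood at 110.3 in WT, Rpl9 at 0.38 and 35.9, and Rps20 at 0.38 and 86.8. Rpl24, which forms a bridge between the subunits, stood at 0.75 and 47.3. In the authors' deposited table the unadjusted p of Rpl36al is 0.0377 and those of Rpl9, Rps20 and Rpl24 are 0.0628, 0.0749 and 0.0931. No DESeq2 adjusted p of these was below 0.05. Rpl36al, Rps20 and Rps26 lay at the dispersion ceiling, where a standard error, and so the p, does not rest on a measured spread.

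Paralogues and near copies were compared because reads of such genes can be divided between them. Rps27 and Rps27rt, on chromosomes 3 and 9, have the same coding sequence over all 252 bases, and Rps27rt shares 91.1% of its stretches of 50 bases with Rps27. The coding sequence common to Rps27 and Rps27rt begins, over its first 150 bases in GENCODE M21, as follows.
Rps27 and Rps27rt: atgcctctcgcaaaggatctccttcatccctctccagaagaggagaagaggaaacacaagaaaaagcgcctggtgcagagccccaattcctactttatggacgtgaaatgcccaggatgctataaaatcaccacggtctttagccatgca
Rps27 was without reads in Tl1a-tg and stood at 62.5 in WT, and Rps27rt stood at 1.25 and 67.4. Since their reads cannot be told apart by this sequence, their separate levels are uncertain. Together they stood at 1.44 in Tl1a-tg and 129.9 in WT, and this difference was not tested. Neither Rps27 nor Rps27rt has a p in the authors' deposited table. The intervals of their log2 fold changes there run from -16.98 to 0.30 for Rps27 and from -13.2 to 1.71 for Rps27rt. Each takes in changes of either sign, and Rps27 lay at the dispersion ceiling. The third relative, Rps27l, shares no stretch of 50 bases with Rps27 and was near 0 in Tl1a-tg and at 0.52 in WT.

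Rpl36a and its relative Rpl36al, on chromosomes X and 12, code for nearly the same protein. Their coding sequences of 318 bases are 87.7% identical, with 39 differing bases, and share no stretch of 50 bases. The first 150 bases are shown, with capitals at the 23 positions that differ, because the fitted means of this pair ran in opposite directions.
Rpl36a: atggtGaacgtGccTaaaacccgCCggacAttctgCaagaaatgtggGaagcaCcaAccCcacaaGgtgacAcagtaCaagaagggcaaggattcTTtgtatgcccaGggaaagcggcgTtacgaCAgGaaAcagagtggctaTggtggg
Rpl36al: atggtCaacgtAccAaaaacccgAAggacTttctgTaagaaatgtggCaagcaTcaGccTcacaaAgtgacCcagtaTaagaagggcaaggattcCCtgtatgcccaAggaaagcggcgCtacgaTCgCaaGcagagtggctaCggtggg
Rpl36a stood at 81.1 in Tl1a-tg and 0.34 in WT, and Rpl36al was without reads in Tl1a-tg and stood at 110.3 in WT. Their sum was 81.3 in Tl1a-tg and 110.6 in WT, a ratio of 1.36. Since the pair is shown for its opposite directions, a sum nearer to level than either gene was set in advance. Neither gene passed the authors' test.

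Rpl22 and Rpl22l1, RNA-binding proteins that can stand in for each other, also ran in opposite directions. Rpl22 stood at 33.4 in Tl1a-tg and 149 in WT, and Rpl22l1 at 37.1 in Tl1a-tg and without reads in WT. Their sum was 70.6 and 149, and they share no stretch of 50 bases. Rpl14 stood at 15.4 and 0.78 and its pseudogene Rpl14-ps1 at 93.3 and 1.77. Since 78.3% of the stretches of Rpl14-ps1 occur in Rpl14, the separate levels of these are uncertain too. Rps15a-ps4 and Rps15a-ps6 share 32.2% and 55.2% of their stretches with Rps15a, which stood at 13.3 in Tl1a-tg and had no reads in WT. Rpl34-ps1 was without reads in Tl1a-tg and stood at 59.9 in WT.

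For ribosomal protein genes, a large part of the authors' mean over libraries did not come from the 6 libraries given here. The authors' deposited table lists such a mean for each gene. The sum of a gene's fitted means divided by that mean has a sharp upper bound of 14.9, and 1785 of the 4538 genes with a summed fitted mean of at least 20 lay within 1% of it. Read as the ratio of a gene whose reads all lie in these 6 libraries, the bound gives the share that they hold of any gene's mean. This reading is inferred from the values. The median share was 45.6% for 69 members and 82.4% for 4469 other genes. A share above 99% was found for 7 members (10.1%) and 39.8% of the other genes, and a share below 50% for 37 members (53.6%) and 24.9%. At similar levels the same order held: where the fitted means averaged 10 to 50 over the genotypes, the medians were 35.0% and 98.4%, from 50 to 100 they were 62.7% and 77.4%, and from 100 to 500 they were 54.3% and 66.0%.

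The extremes were single genes with very high means. Rpl19, which reaches across to the small subunit, has a mean of 684 in the authors' deposited table, of which these libraries hold 1.33%. For Rps19, the gene most often mutated in the inherited anaemia named after Diamond and Blackfan, the mean in that authors' deposited table is 351 and the share 1.88%. Its fitted mean was 98.2 in Tl1a-tg and near 0 in WT. For Rpl21 the authors' deposited table has a mean of 546 and the share was 4.36%. None of Rpl19, Rps19 and Rpl21 has a p in the authors' deposited table. For Rps16 the share was 22.5%. The large subunit median was 41.7% and that of the small subunit 51.2%. Since the authors' errors may rest on the libraries outside these 6, the p-values above cannot be tied to the spread among the 3 libraries of each genotype.

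**Figure D4:**
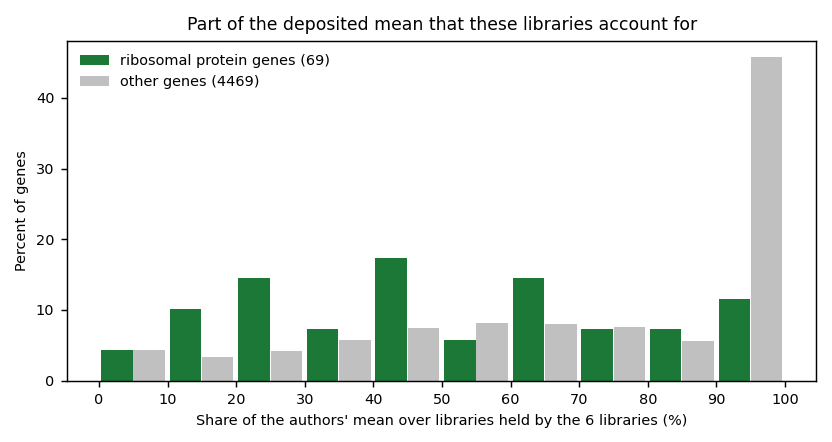
Percent of genes (vertical axis) by the share of the authors' mean over libraries that the 6 libraries hold (horizontal axis, in bins of 10%), for 69 members and 4469 other genes with a summed fitted mean of at least 20. Other genes pile up in the last bin, whereas the members spread over all bins with a median of 45.6%.

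Promoters of ribosomal protein genes are known for a tract of pyrimidines at the start of transcription and often for sites of ETS factors. RefSeq promoters were found for 59 of the 82 members. The pyrimidine tract was searched on the strand read in the gene's direction as CTTTTC, as the variant CTTTCC or as the variant CTCTTT. At least 1 of these occurred in 38 promoters (64.4%), against 30.2% of 27025 promoters of the same length. The ETS core letters CTTCCG, or CGGAAG for the other strand, occurred in 40 (67.8%), against 17.2%. TATAAA occurred in 6 (10.2%), against 8.88%. The Rps16 promoter above holds CTTCCG, and the Rplp0 promoter holds CTTTCC before the gene's start and TATAAA after it. Matches were counted anywhere in the promoter, so they need not lie at the start of transcription. The letters were chosen with promoter sequences in view, a match is a description and not a binding site, and no relation to the genotypes was tested.

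Genes that work with the ribosomal proteins were taken from lists. Ribosomal proteins with other names were measured in both genotypes, and of 3 with an adjusted p none passed the authors' test, which called 3.67% of all genes with an adjusted p. Fau stood at 23.7 in Tl1a-tg and 126 in WT, and Gnb2l1, the scaffold protein RACK1, at 105.1 and 65.8. Rps27a, which is made as a fusion with ubiquitin, stood at 52.2 and 56.4. Of the 19 genes for transcription of ribosomal RNA, 6 were listed, of which 2 have an adjusted p and neither passed (3.67% of all genes). Rn45s was 127754 in Tl1a-tg and 153823 in WT. Ubtf, the factor that keeps ribosomal DNA open, stood at 72.3 and 8.45, and Polr1a, the largest subunit of RNA polymerase I, at 61.1 in Tl1a-tg and without reads in WT. Of the 52 factors of nucleolar assembly, 25 were listed, of which 4 have an adjusted p and none passed (3.67% of all genes). Ncl stood at 13.9 and 170.2, Mybbp1a at 76.2 and 74.0, and Riok2, a kinase of late small subunit assembly, at 135 and 13.3.

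Of 19 other translation genes whose messages have a pyrimidine tract, 16 were listed, and 9 of these had reads in both genotypes (56.3%, against 34.4% of all genes). Pabpc1, which binds the poly(A) tail, stood at 1474 in Tl1a-tg and 888 in WT. The elongation factors Eef1a1 and Eef2 stood at 902 and 1172 and at 498 and 689. Of the 10 with an adjusted p, 1 fell past the authors' threshold in Tl1a-tg, against 1.2% of all genes called lower. It was Naca, a chaperone of new chains, near 0 in Tl1a-tg and at 94.8 in WT, and it is named because it was the only call. With near-0 values raised to the lowest common value no gene of the table passed, Naca included. Of 21 genes of mTORC1 and the S6 kinases, 14 were listed, of which 5 have an adjusted p and none passed (3.67% of all genes). The 4 measured in both genotypes had higher fitted means in Tl1a-tg, whereas the genes below that limit in 1 genotype lay in either direction. Mtor was without reads in Tl1a-tg and stood at 35.5 in WT, Tsc2 stood at 2.12 and 49.1, and Tsc1 at 70.9 in Tl1a-tg and without reads in WT. Among the 4 were Larp1, which binds the pyrimidine tract, at 208 and 89.8, the translation repressor Eif4ebp2 at 194 and 115, and Deptor, an inhibitor of mTOR, at 165 and 137.

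The proteins of the mitochondrial ribosome, which translates only the messages of mitochondrial DNA, were mostly read in 1 genotype alone. Of 27 listed genes 1 was measured in both genotypes, Mrpl38 at 48.6 in Tl1a-tg and 29.3 in WT, a share of 3.7% compared with 42.7% of the cytosolic genes and 19.4% of all genes. Reads in Tl1a-tg alone were found for 14 (51.9%, against 31.4% of all genes), such as Mrps26 at 59.3, and in WT alone for 5 (18.5%, against 16.3%). Mrps24 and Mrps28 were without reads in Tl1a-tg and stood at 100.3 and 91.9 in WT. Only 1 of the 27 has an adjusted p, and it did not pass (3.67% of all genes). The 6 libraries held a median of 100% of the mean of 19 mitochondrial ribosomal protein genes, 17 of them above 99%, against the 45.6% of the cytosolic ones. Their median level per kilobase of coding length was also lower, at 33.3 in Tl1a-tg and 0.46 in WT against 102 and 58.6 for the cytosolic genes, and the difference was not tested.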

How the data were processed

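The tools named in the submitters' processing notes are Bowtie2 2.1.0, RSEM 1.2.15, DESeq2, FastQC and Trimmomatic. Not given in the sources used here are their settings, the annotation and the genome build. The deposited signal values, called normalized counts by their sheet, hold 1 fitted mean per gene and genotype times 1 library factor: column ratios within a genotype varied by at most 8.88e-15. The authors deposited log2 fold changes with standard errors, Wald scores, p-values and Benjamini-Hochberg adjusted p-values from DESeq2, and a table shrunken by apeglm. The deposited list repeating significant names was not used.

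Signal was divided by library factors with a geometric mean of 1 (1.01, 1.10 and 0.781 for Tl1a-tg replicates 1 to 3, 1.34, 0.591 and 1.46 for WT replicates 1 to 3). No test between groups was possible on fitted means, so the authors' p-values were used, with calls at an adjusted p below 0.05. Missing p-values stayed missing. Without reads means within 1% of the commonest fitted mean (0.193 in Tl1a-tg, 0.176 in WT) or below 0.01, which is inferred from the values. Intervals are 1.96 standard errors to each side. Dispersions were solved from the standard errors with means held at 0.5 or more, by a solver checked on simulated data. Levels per kilobase use coding lengths from GENCODE M21, for 78 members. Python 3.11.15, numpy 2.4.6, pandas 2.3.3 and scipy 1.17.1 were used.

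Members and gene lists were chosen with earlier results of these data known. Named are called members, in each direction the 5 with the smallest p, per subunit the 8 with the highest fitted mean, paralogues with their partners, and from each list the 3 with the highest fitted mean. Other genes were named after their values were seen. A few genes that this rule names are counted but not reported here by name or drawn.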

Additional observations from a re-analysis of the deposited data

How the results depend on the processing

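No paired analysis was possible because the deposited values hold no replicate values, and for the same reason no replicate could be left out. With near-0 values at the floor, 0 members and 0 of all genes were called by the recomputed Wald test, while 10 members kept an unadjusted p below 0.05 (9 higher, 1 lower). Adjusting over all genes with a p left Rps16 called, at 2.21e-07. The median log2 fold change of the members was -0.38 at a fitted mean of at least 50, 0.85 and 0.77 over members with reads in either genotype with pseudocounts of 1 and 10, and 0.46 with the median of all genes set to 0. The medians of all genes were -0.13, 0.62, 0.29 and 0. In the same order the large subunit gave -0.82, 0.61, 0.52 and 0.59 and the small subunit -0.38, 1.34, 1.07 and 0.27, so no direction of a median held under all settings, and the cause was not tested.

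Without Rn45s in the total, the members took 1.41% in Tl1a-tg and 1.41% in WT, the large subunit 0.877% and 1.03%, and the small subunit 0.537% and 0.384%. Without pseudogenes and paralogues the members took 1.01% and 0.957%, the large subunit 0.617% and 0.697%, and the small subunit 0.260% in WT. Without Rplp0 the members took 1.001% and 0.864% and the large subunit 0.607% and 0.591%, which turns its direction. Leaving out Rps2, which was chosen after seeing the data, gave the small subunit 0.366% and 0.210%. The direction of the large subunit share thus depended on Rplp0. The small subunit share was higher in Tl1a-tg in each of these settings, but none of them could have turned it. No setting left out a small subunit gene that was measured higher in Tl1a-tg. The cause was not tested. Members read in Tl1a-tg alone numbered 24 at a fitted mean of at least 1 (29.3%, against 33.5% of all genes) and 28 at 10, and in WT alone 7 (8.54%, against 17.6%) and 11, or 1 among conventional genes. The depth is unknown, so genes without reads may lie below detection.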
